A study of Homo sapiens with 2 samples.

Results

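The 37 genes described here are 36 that act in ribosome biogenesis, most of them in the nucleolus, and RANBP1, a gene of the Ran cycle that was listed with them. They were taken by name, with earlier results of these data known, and all 37 were among the 16251 genes of the count matrix. All 37 reached 5 unique molecular identifiers (UMIs, each marking 1 captured transcript) per 1000000 UMIs of the library, written CPM, in at least 1 library and so counted as measured, as did 9192 genes in all. The values come from a human breast cancer cell line in long use, MDA-MB-453, which the labels call triple-negative. It was grown with IL1β and TNFα at 10 ng/ml, or with water as vehicle, for 24 hours in DMEM with serum. That time is the one in the labels and methods, and a figure legend of the study gives a longer one. Each condition was 1 culture and 1 single-cell 3′ library, with 3163 IL1β + TNFα–treated and 2822 vehicle-treated cells. With 1 library per condition no difference below has a replicate check, no test was made, and every interval is an exact 95% interval that covers counting error only.

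Ribosomes are assembled in the nucleolus around rRNA that RNA polymerase I transcribes as a long precursor. Small nucleolar ribonucleoproteins (snoRNPs) modify this RNA, the box C/D class by methylation and the box H/ACA class by pseudouridylation, and large assemblies then fold and cut it and add ribosomal proteins to the small and the large subunit. Growing and dividing cells make many ribosomes, and MYC is a known activator of many of these genes. It binds DNA together with MAX at the E-box CACGTG.

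Both libraries were of like depth, with medians of 21508 UMIs per cytokine-treated cell and 20249 per vehicle cell, and 8 cell barcodes occurred in both. Their phase makeup was not alike. By the deposited calls, 88.5% of cytokine-treated cells were in G1, 10.2% in S and 1.26% (40 cells) in G2 or M, against 36.6%, 45.1% and 18.3% of vehicle cells. The epithelial marker EPCAM stood at 242 and 227 CPM in the cytokine-treated and vehicle libraries, and KRT18 at 1457 and 688 CPM. ERBB2, which the triple-negative label would have low, was at 208 and 129 CPM. ESR1 and PGR were not among the genes of the count matrix, so their levels could not be read. The analysed markers of lymphoid, myeloid and erythroid cells did not exceed 1.82 CPM in either library, and the fibroblast gene COL1A1 was at 20.1 and 20.9 CPM.

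Promoter sequence was looked up for the 37 genes in the RefSeq table of GRCh38.p14, which spans 250 bases before to 50 bases after each start, and 32 matched. The letters CACGTG, which read the same on both strands, occurred in 16 of the 32 (50%, Clopper-Pearson interval 31.9 to 68.1%). The share was 33.3% in 87 other ribosome biogenesis factors, 6.45% in 62 ribosomal protein genes, 13.3% in 7337 measured genes and 8.77% in all 27305 genes of the table. In all 16 a copy began within 50 bases of an annotated start, on either side of it. The window ends 50 bases after the start, so any copy after the start lies within that distance by construction. Such distances were not taken for the other genes. When only the bases before the start were read, 5 of 32 (15.6%, interval 5.28 to 32.8%) held it, against 17.2% of the other ribosome biogenesis factors, 11.8% of measured genes and 7.73% of all genes, all of them within that interval. The stretches below show the copy nearest to a start in 6 members with full values in this text, each with 10 bases on either side, 5′ to 3′ on the gene's strand, and with CACGTG in capitals. They are shown because the same 6 letters sit close to the start in genes whose levels differed by very unlike amounts between the libraries, among them WDR43, DDX21, NOP10 and GNL3. UTP20 is given with 90 bases before its start as longer context.
WDR43 at chr2:28894660-28894685, plus strand: cacggacgaaCACGTGgctgcagcgg
DDX21 (second start) at chr10:68956606-68956631, plus strand: ccgggtgtccCACGTGgtccccggcg
FBL at chr19:39846358-39846383, minus strand: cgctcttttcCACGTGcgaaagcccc
BYSL at chr6:41921517-41921542, plus strand: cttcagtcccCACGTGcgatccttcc
GNL3 (second start) at chr3:52686028-52686053, plus strand: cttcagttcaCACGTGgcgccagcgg
NOP10 at chr15:34343132-34343157, minus strand: aattgacgaaCACGTGacgcggtcgg
UTP20 at chr12:101280015-101280104, plus strand: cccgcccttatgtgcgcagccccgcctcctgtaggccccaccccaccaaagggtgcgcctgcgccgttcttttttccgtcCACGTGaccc
The first base of the motif lay 3 bases after the start in WDR43, 6 after it in FBL and GNL3 and 28 after it in BYSL. It lay 31 bases before the start in DDX21, 11 before it in NOP10 and 10 before it in UTP20. A match is a description of these letters and not a binding site.

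As a group the 37 genes were lower in the cytokine-treated library. The median log2 ratio of cytokine-treated over vehicle CPM was -0.62, with quartiles of -0.88 and -0.41, against -0.20 over all 9192 measured genes. In 36 of the 37 the ratio was below 0, where 66.4% of all measured genes were. At least 1.5-fold lower were 22 of the 37, against 19.9% of all measured genes, and at least 2-fold lower were 7, against 7.48%. None was 1.5-fold higher, a size that 9.01% of all measured genes passed. Summed, the 37 genes gave 191049 UMIs, or 0.275% of the cytokine-treated library, against 223030 UMIs, or 0.381%, of the vehicle library, a log2 ratio of -0.47 (-0.48 to -0.46). Without NPM1 and NCL, the nucleolar chaperones nucleophosmin and nucleolin, it was -0.66, and NPM1 was the only member with a ratio above 0. RANBP1 gave 316 of the summed 2745 CPM with cytokines and 665 of the summed 3807 CPM with vehicle. This sum and the shares by cell and cluster below include RANBP1, and they were not taken without it.

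These values rest on scaling by total UMIs. Under TMM scaling and DESeq2 size factors every log2 ratio was 0.18 and 0.19 higher, which moved the median of all genes by as much. The median of the 37 was then -0.44 and -0.42, with 34 below 0, where 52.1% of all measured genes were under TMM and 50.4% with DESeq2 size factors. Under either scaling 13 were at least 1.5-fold lower, against 12.6% and 12.1% of all measured genes. No member was then at least 2-fold lower, against 5.43% and 5.34% of all measured genes, so the 2-fold count in particular depends on the scale. Among the genes at 20 CPM or more, scaled by total UMIs, 14 of 20 members were at least 1.5-fold lower, against 17.3% of all such genes.

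**Figure D1:**
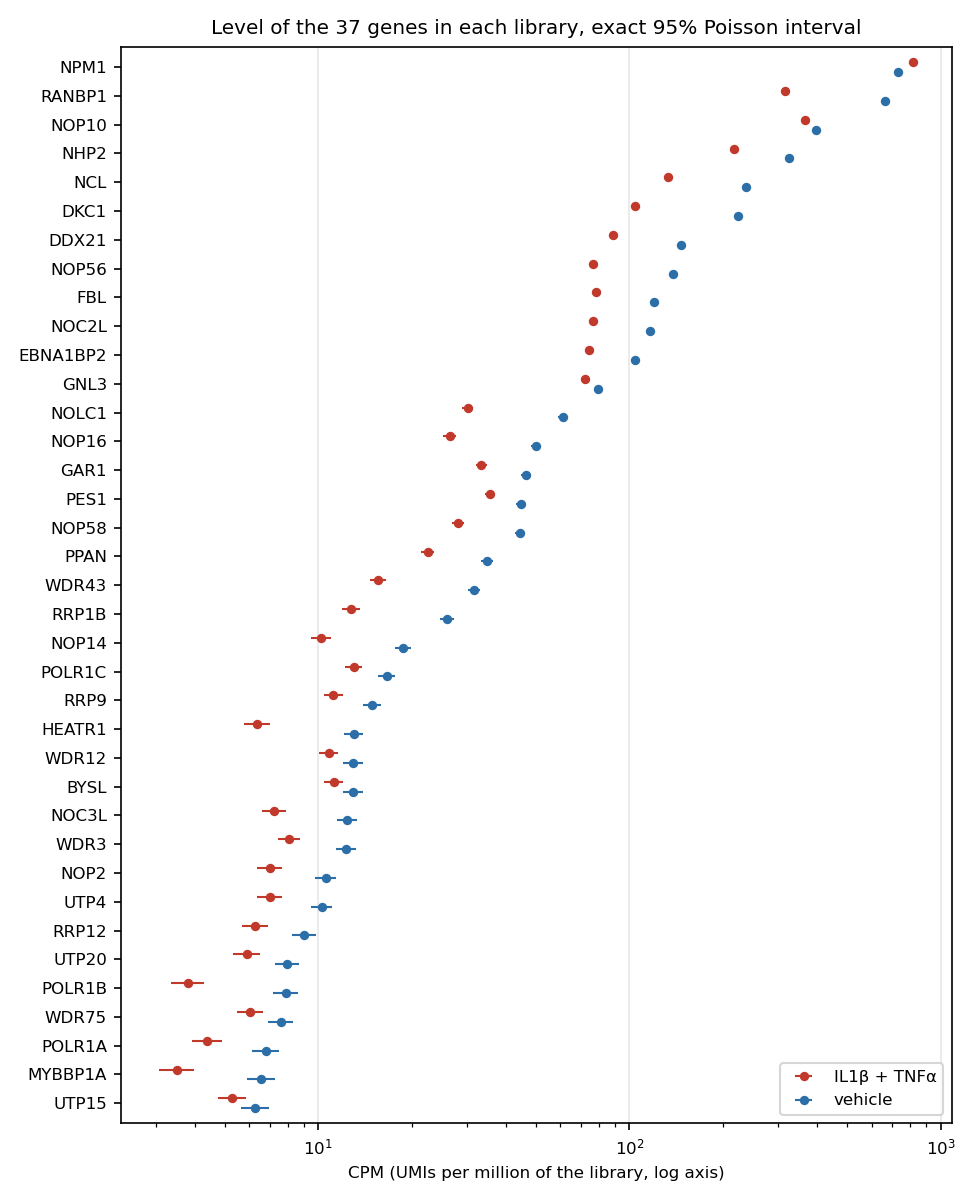
Level of each of the 37 genes in the cytokine-treated (red) and vehicle (blue) libraries on a log axis of CPM, with 95% Poisson intervals that cover counting error. The cytokine-treated point lies to the left of the vehicle point for 36 genes, and NPM1, at the top, is the exception with 813 against 729 CPM.

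UMIs mark transcript ends and were not set per length, so levels of different genes are not compared. The members follow by role, from transcription of rRNA to the late steps of each subunit.

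RNA polymerase I was represented by 3 subunits, of which POLR1A and POLR1B form the catalytic core and POLR1C is shared with RNA polymerase III. POLR1B gave 265 UMIs, 3.81 CPM (3.36 to 4.29), in the cytokine-treated library and 460 UMIs, 7.85 CPM (7.15 to 8.60), in the vehicle library, a log2 ratio of -1.04 (-1.27 to -0.82). After thinning of every cell to 15000 UMIs, 6.03% of cytokine-treated and 11.7% of vehicle cells held at least 1 of its UMIs. POLR1A had 4.40 CPM in cytokine-treated cells and 6.79 CPM in vehicle cells, and POLR1C had 12.98 and 16.61 CPM. All 3 subunits were thus lower after cytokine treatment. The log2 ratio of POLR1C was -0.36 (-0.49 to -0.22) and that of POLR1A -0.63 (-0.85 to -0.41). These 2 intervals overlapped, while that of POLR1B lay below the POLR1C interval. In G1 cells POLR1A was at -0.29 and POLR1C at -0.44, again with overlapping intervals.

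The regulators DDX21, MYBBP1A and RRP1B work at the rRNA genes and on their transcript. DDX21, an RNA helicase that joins polymerase I transcription to processing, had 88.7 CPM (86.5 to 90.9) in cytokine-treated cells and 146 CPM (143 to 149) in vehicle cells, a log2 ratio of -0.72 (-0.77 to -0.67), and was seen in 71.4% and 86.0% of thinned cells. RRP1B, a nucleolar protein of large subunit processing, stood at 12.75 CPM in cytokine-treated cells against 25.86 CPM in vehicle cells, a log2 ratio of -1.02. MYBBP1A, a nucleolar repressor of rRNA gene transcription, had 3.51 CPM in cytokine-treated and 6.55 CPM in vehicle cells, a log2 ratio of -0.90. Both the gene of this repressor and those of the polymerase core were lower after cytokine treatment.

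Box C/D snoRNPs were covered by their methyltransferase FBL (fibrillarin) and the scaffold proteins NOP56 and NOP58. NOP56 had 5324 UMIs, 76.5 CPM (74.5 to 78.6), after cytokines and 8113 UMIs, 138 CPM (135 to 142), with vehicle, a log2 ratio of -0.86 (-0.91 to -0.81), and 65.8% against 84.96% of thinned cells held it. FBL had 78.1 CPM (76.03 to 80.2) in cytokine-treated cells and 119.8 CPM (117 to 123) in vehicle cells, a log2 ratio of -0.62 (-0.67 to -0.57), and 67.8% against 82.1% of thinned cells. NOP58 had 28.2 CPM in cytokine-treated and 44.5 CPM in vehicle cells, a log2 ratio of -0.66. The 3 proteins share 1 particle, and their log2 ratios lay between -0.86 and -0.62.

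Box H/ACA snoRNPs hold the pseudouridine synthase dyskerin, encoded by DKC1, with GAR1, NHP2 and NOP10, and the same proteins are also parts of telomerase. DKC1 (chrX:154762742-154777689 on GRCh38, plus strand) gave 7238 UMIs, 104.0 CPM (102 to 106), in the cytokine-treated library and 13083 UMIs, 223 CPM (219 to 227), in the vehicle library. Its log2 ratio of -1.10 (-1.14 to -1.06) was the lowest of the 37, and 74.7% of cytokine-treated against 93.8% of vehicle cells held it after thinning. NHP2 had 216 CPM (213 to 220) with cytokines and 324 CPM (320 to 329) with vehicle, a log2 ratio of -0.59 (-0.62 to -0.55), in 94.9% and 98.8% of thinned cells. GAR1 had 33.4 CPM in cytokine-treated and 46.4 CPM in vehicle cells, a log2 ratio of -0.47.

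NOP10 departed from its partners. It gave 25454 UMIs, 366 CPM (361 to 370.3), in cytokine-treated cells and 23281 UMIs, 397 CPM (392.3 to 402.5), in vehicle cells, a log2 ratio of -0.12 (-0.15 to -0.09), and 99.4% and 99.6% of thinned cells held it. That ratio lay above the -0.20 median of all genes, and it was 0.057 under TMM scaling and 0.073 with DESeq2 size factors, so its direction turned with the scale. The genes of 1 particle thus ranged from the lowest ratio of the 37 to the second highest.

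Among the nucleolar chaperones, NOLC1 and NCL were lower and NPM1 was not. NOLC1, which encodes the snoRNP chaperone Nopp140, had 30.2 CPM (28.9 to 31.5) after cytokines and 60.9 CPM (58.9 to 62.9) with vehicle, a log2 ratio of -1.01, and was seen in 35.3% and 57.9% of thinned cells. NCL had 9272 UMIs, 133 CPM (131 to 136), in cytokine-treated cells and 13922 UMIs, 238 CPM (234 to 242), in vehicle cells, a log2 ratio of -0.83 (-0.87 to -0.80), in 81.0% and 93.5% of thinned cells. NPM1 (chr5:171387116-171411810, plus strand) gave 56596 UMIs, 813 CPM (807 to 820.0), in the cytokine-treated library and 42729 UMIs, 729 CPM (722 to 736), in the vehicle library. Its log2 ratio of 0.16 (0.14 to 0.18) was the only one of the 37 above 0, and it stayed above 0 under TMM scaling, at 0.33, and DESeq2 size factors, at 0.35. GENCODE names 49 pseudogenes of NPM1, and reads shared with such copies may not have been counted, so its absolute level is uncertain.

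The UtpA complex binds the front of the rRNA precursor and opens assembly of the small subunit processome. HEATR1 had 443 UMIs, 6.37 CPM (5.79 to 6.99), in cytokine-treated cells and 761 UMIs, 12.99 CPM (12.08 to 13.95), in vehicle cells, a log2 ratio of -1.03 (-1.20 to -0.86), and 9.76% against 18.9% of thinned cells held it. WDR43 had 15.6 CPM (14.7 to 16.6) after cytokines and 31.7 CPM (30.3 to 33.1) with vehicle, a log2 ratio of -1.02 (-1.13 to -0.91), in 19.4% and 37.5% of thinned cells. UTP15 differed least of the 5, with 367 UMIs, 5.27 CPM (4.75 to 5.84), in cytokine-treated and 368 UMIs, 6.28 CPM (5.66 to 6.96), in vehicle cells, a log2 ratio of -0.25 (-0.46 to -0.04), in 8.01% and 8.78% of thinned cells. UTP4 and WDR75 lay between, with log2 ratios of -0.56 and -0.33. UTP4 overlaps SNTB2 on the same strand, so part of its signal could be shared.

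The other small subunit factors were NOP14, WDR3, RRP12, UTP20, RRP9 and BYSL. RRP9 is a protein of the U3 snoRNP, which guides the first cuts, and BYSL (yeast Enp1) and RRP12 act late, up to export of the subunit. NOP14 had 10.17 CPM in cytokine-treated and 18.7 CPM in vehicle cells, a log2 ratio of -0.88 that was the lowest of the 6. WDR3, RRP12, UTP20 and RRP9 had log2 ratios from -0.61 to -0.41. BYSL had 780 UMIs, 11.2 CPM (10.4 to 12.02), after cytokines and 757 UMIs, 12.9 CPM (12.02 to 13.9), with vehicle, a log2 ratio of -0.21 (-0.35 to -0.06), close to the median of all genes, in 15.2% and 17.7% of thinned cells.

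The large subunit factors numbered 9. NOP16, which has a large subunit role in yeast, had 26.4 CPM in cytokine-treated and 49.9 CPM in vehicle cells, the lowest log2 ratio of the 9 at -0.92. NOC2L and NOC3L, a partner family that carries the precursor through the nucleolus in yeast, had log2 ratios of -0.62 and -0.79. NOC2L gave 76.1 CPM (74.1 to 78.2) with cytokines and 117 CPM (114 to 119) with vehicle, in 66.6% and 80.5% of thinned cells. PPAN and the rRNA methyltransferase gene NOP2 had log2 ratios of -0.64 and -0.60. PPAN overlaps P2RY11 on the same strand, and NOP2 overlaps another coding gene, so part of their signal could be shared.

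EBNA1BP2, whose yeast relative Ebp2 acts in large subunit assembly, had 73.8 CPM (71.8 to 75.9) in cytokine-treated and 104.1 CPM (101.5 to 106.7) in vehicle cells, a log2 ratio of -0.50 (-0.55 to -0.44), in 63.1% and 76.6% of thinned cells. PES1 and WDR12, which with BOP1 form the PeBoW complex, had log2 ratios nearer 0, at -0.33 and -0.26. GNL3, the GTP-binding nucleostemin of proliferating cells, had 4992 UMIs, 71.7 CPM (69.8 to 73.8), after cytokines and 4646 UMIs, 79.3 CPM (77.0 to 81.6), with vehicle, a log2 ratio of -0.14 (-0.20 to -0.09), in 63.3% and 65.04% of thinned cells. It turned to 0.032 under TMM scaling and 0.048 with DESeq2 size factors.

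RANBP1 differs in kind from the other members, since its protein binds RanGTP in nuclear transport and mitosis and is no ribosome assembly factor. It gave 22006 UMIs, 316 CPM (312 to 320.4), in the cytokine-treated library and 38953 UMIs, 665 CPM (658 to 671), in the vehicle library, a log2 ratio of -1.07 (-1.10 to -1.05), and 97.3% against 99.9% of thinned cells held it. Over all members the share of thinned cells with a UMI was lower after cytokines for 36, against 65.6% of all measured genes. The median difference was -5.68 percentage points, against -2.11 over all measured genes. NPM1 was in nearly every thinned cell of both libraries, at 99.97% and 99.92% with overlapping intervals, so its share could not show a difference. No cell type lacking these genes was at hand as a background for such shares.

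**Figure D2:**
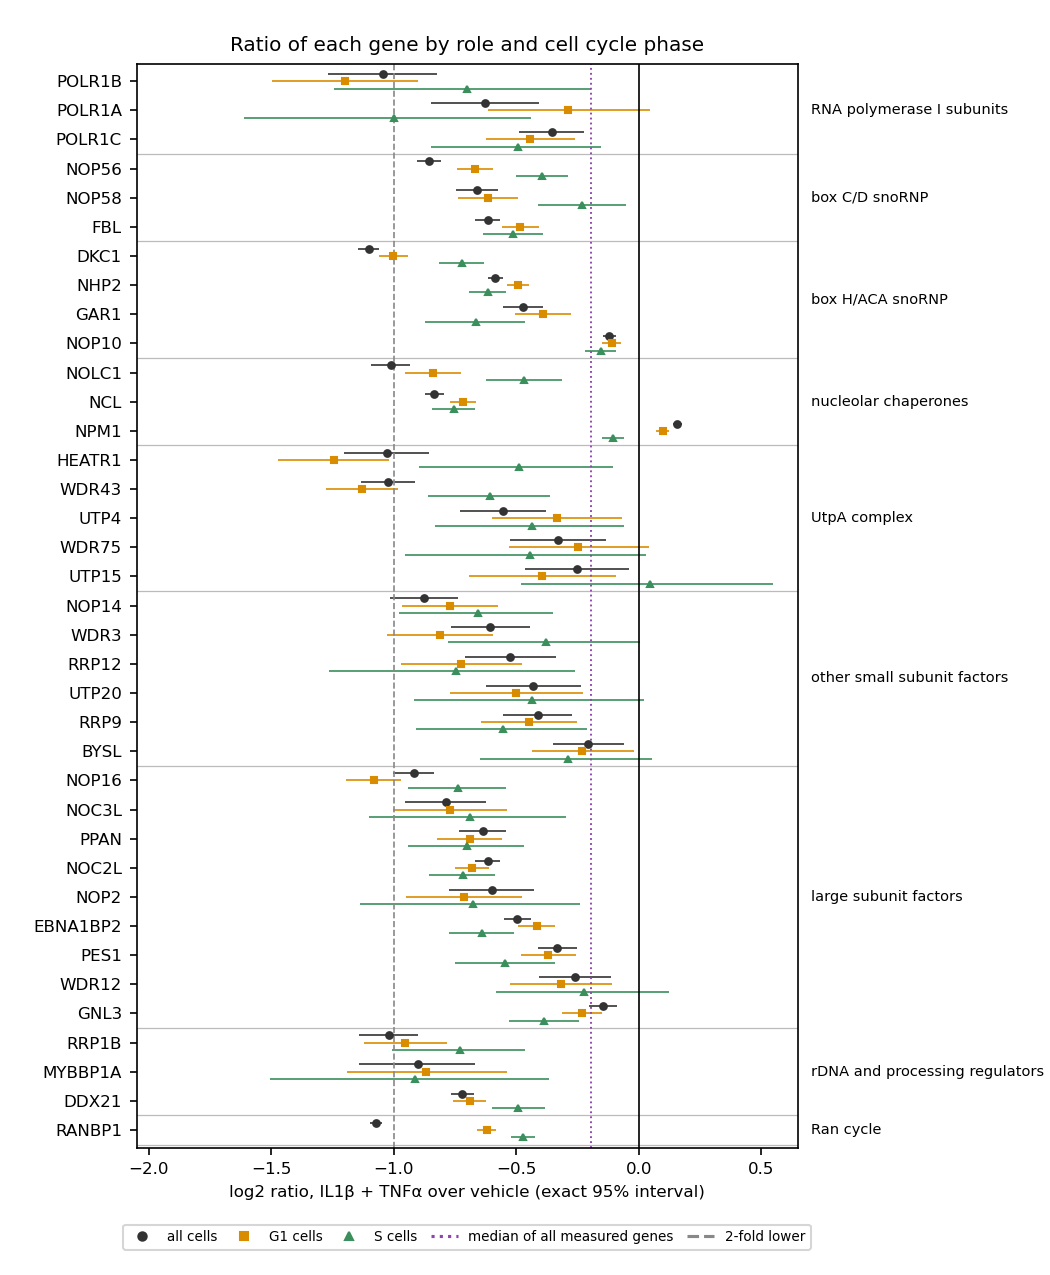
Log2 ratio of cytokine-treated over vehicle CPM for each gene, grouped by role, over all cells (black circles), G1 cells (orange squares) and S cells (green triangles) with exact 95% intervals; the dotted line marks the median of all measured genes at -0.20 and the dashed line 2-fold lower. Every role has members left of the dotted line, NPM1 alone lies above 0 over all cells, and the RANBP1 points shift from -1.07 over all cells to -0.62 in G1 and -0.47 in S.

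Because the phase makeup differed, the ratios were taken within each phase. In G1 cells the median of the 37 was -0.62, against -0.16 over all measured genes, and 36 were below 0, against 64.4% of all measured genes. In these cells 20 were at least 1.5-fold lower (15.9% of all measured genes) and 5 at least 2-fold lower (5.46%). In S cells the median was -0.54, against -0.15 over all genes, with 36 below 0 (66.1% of all genes), 17 at least 1.5-fold lower (10.7%) and 1 at least 2-fold lower (2.16%). The 40 cytokine-treated G2 or M cells gave a median of -0.29, against -0.01 over all genes, with 26 below 0 (51.2% of all genes) and 0 at least 1.5-fold lower (4.27%), where the 37 genes gave 2511 UMIs in all in the cytokine-treated library. With the phase shares held as in the vehicle library, the median was -0.51, against -0.12 over all genes, and 35 were below 0 (64.3% of all genes), UTP15 at 0.11 and NPM1 at 0.00 being the others.

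The 43 genes of an S phase list had a median of -1.55 within G1 calls and -0.25 within S calls. The 54 G2 and M phase genes had -2.17 and -0.75. Cells called G1 in the 2 libraries were therefore not alike in these genes, and the part of this in the members' G1 ratios was not tested.

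Members did not act alike across phases. DKC1 had 97.1 CPM in cytokine-treated and 195 CPM in vehicle G1 cells, and 158 and 260.5 CPM in S cells, log2 ratios of -1.002 and -0.72. RANBP1 had 281 CPM in cytokine-treated and 433 CPM in vehicle G1 cells, and 569 and 790.5 CPM in S cells. Its ratios within phases, -0.62 and -0.47, were thus nearer 0 than the -1.07 over all cells. HEATR1, POLR1B, WDR43 and NOP16 had G1 ratios of -1.24, -1.20, -1.13 and -1.08, each below their ratio over all cells. For each of these genes the G1 interval overlapped the interval over all cells, so a difference was not shown. NCL and NOC2L had ratios whose intervals overlapped between the phases, at -0.72 in G1 and -0.76 in S for NCL and -0.68 and -0.72 for NOC2L. The ratio of NHP2, though not its level, was lower in S than in G1 cells, at -0.49 (-0.54 to -0.45) in G1 and -0.62 (-0.69 to -0.54) in S. NPM1 had 0.10 in G1 and -0.10 in S, and the S value was 0.00 with TMM and 0.01 with DESeq2 size factors. The G1 intervals of POLR1A (-0.61 to 0.05) and WDR75 (-0.53 to 0.04) included 0.

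Within a library, S and G1 cells differed little for most members, while most members were lower in vehicle G2 or M cells than in vehicle G1 cells. In vehicle cells the S over G1 log2 ratio had a median of 0.12, against 0.06 over all genes, with 29 above 0 (60.6% of all genes) and 3 at least 1.5-fold higher (7.92%). That median was 0.20 with phases called again. With totals that left out ribosomal protein and mitochondrially encoded genes it was 0.058 with 22 above 0, where all genes had -0.0008. RANBP1 and NOLC1 stood highest, at 0.87 and 0.70. Over G1, vehicle G2 or M cells had a median of -0.27, against 0.05 over all genes, with 32 below 0 (43.2%) and 7 at least 1.5-fold lower (3.75%). RANBP1 was the member furthest from that median, at 0.84. In the cytokine-treated library S over G1 was 0.19 at the median, with NOLC1 at 1.07 and RANBP1 at 1.02.

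**Figure D3:**
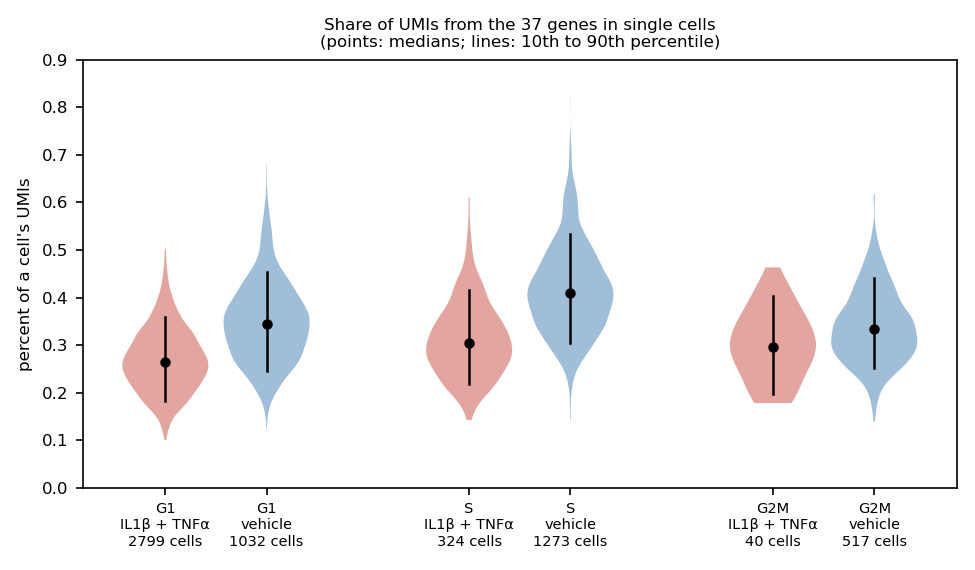
Share of each cell's UMIs that came from the 37 genes, in percent, by phase call and library, with the cytokine-treated cells (red) left of the vehicle cells (blue) in each phase; points are medians over cells and lines the 10th to 90th percentile. The cytokine-treated median is the lower one in each phase, at 0.264% against 0.343% in G1, 0.303% against 0.409% in S and 0.296% against 0.333% in G2 or M.

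The difference lay across the cells of the culture and not in a small subset. In the median cytokine-treated cell the 37 genes made up 0.268% of UMIs (57 UMIs), with a 10th to 90th percentile of 0.186 to 0.366%. The median vehicle cell gave 0.369% (74 UMIs), with 0.264 to 0.499%. Of the cytokine-treated cells, 90.5% lay below the vehicle median, and of the vehicle cells 11.1% lay below the cytokine-treated median. The distributions overlapped, since single cells spanned 0.100 to 0.611% after cytokines and 0.123 to 0.826% with vehicle.

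The authors grouped the cells into 6 clusters numbered 0 to 5. The methods describe an integration of both samples for display, with the difference of the S and G2M scores regressed out, but no cluster settings, and levels by cluster are a description. The summed CPM of the 37 was lower in the cytokine-treated cells of every cluster. In cluster 0 it was 2790 CPM in cytokine-treated and 4266 CPM in vehicle cells, and in cluster 1, the lowest of both libraries, 2309 and 3233 CPM. In cluster 2, where 98.9% of cytokine-treated and all vehicle cells had S, G2 or M calls, it was 3204 and 4033 CPM. The median log2 ratio of the members was -0.82, -0.78, -0.35, -0.75, -0.76 and -0.22 in clusters 0 to 5, where all measured genes had -0.18, -0.24, -0.10, -0.15, -0.22 and -0.08. Clusters 2 and 5 thus had the members' ratios nearest 0, and cluster 5 held the fewest cytokine-treated cells, at 134.

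With G1 cells alone, so that phase calls were the same on both sides, the members' share of UMIs in the median cell was 0.273% in cytokine-treated and 0.387% in vehicle cells of cluster 0. In cluster 1 it was 0.228% and 0.302%, and in cluster 3 it was 0.302% and 0.382%. In cluster 4 it was 0.235% and 0.332%, and in cluster 5 it was 0.313% and 0.369%. In each of these 5 clusters the cytokine-treated median was the lower one.

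DKC1 had 76.5 to 162 CPM in the 6 cytokine-treated clusters and 189 to 268 CPM in the vehicle clusters, ranges that did not overlap. This was not particular to DKC1, since the ranges of NCL, FBL, NHP2 and DDX21, among others, did not overlap either. Those of RANBP1, NPM1 and NOP10, among others, did overlap. Such ranges were not compared for all measured genes, so they do not set the members apart from other genes. RANBP1 was highest in cluster 2 of both libraries, at 627 CPM with cytokines and 941 CPM with vehicle. NPM1 differed in direction between clusters. It had 689 CPM in cytokine-treated and 569 CPM in vehicle cells of cluster 1, but 882 and 1003 CPM in cluster 0, log2 ratios of 0.28 (0.23 to 0.32) and -0.19 (-0.23 to -0.14). Its ratio was 0.19 (0.13 to 0.25) in cluster 4, 0.09 (0.02 to 0.17) in cluster 5, 0.03 (-0.02 to 0.08) in cluster 2 and -0.08 (-0.12 to -0.04) in cluster 3. Scaling was not varied within clusters, and the ratios below 0 are no larger than about the 0.18 and 0.19 by which the scalings shifted all cells.

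**Figure D4:**
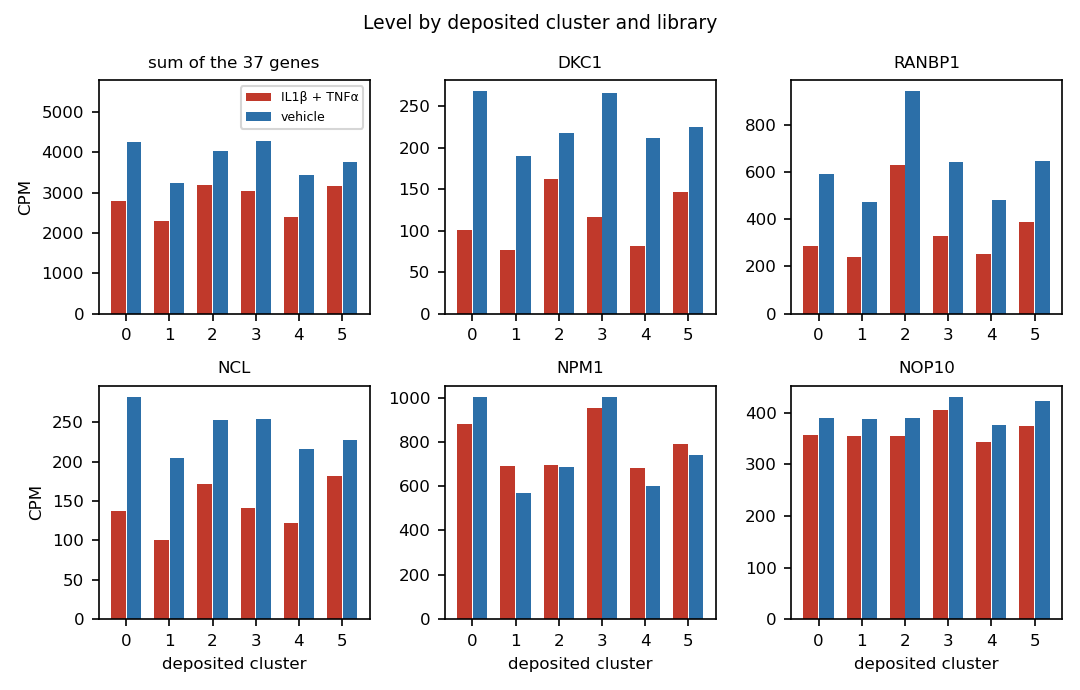
CPM by deposited cluster for the sum of the 37 genes and for 5 of them, with cytokine-treated bars (red) left of vehicle bars (blue) and each axis starting at 0. DKC1 and NCL are lower after cytokines in all 6 clusters, RANBP1 is highest in cluster 2, NPM1 is higher after cytokines in cluster 1 (689 against 569) and lower in cluster 0 (882 against 1003), and NOP10 varies little.

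Across single cells the members varied together only weakly. In genes at 20 CPM or more in a library, Pearson r of a member with the sum of the others had a median of 0.194 over 18 members in cytokine-treated cells and 0.222 over 20 members in vehicle cells, where other genes had medians of 0.039 and 0.023. These points share the library and each cell's depth. The 95th percentile of r over the other genes, 0.269 with cytokines and 0.246 with vehicle, lay above both member medians. It was passed by 5 of the 18 and 8 of the 20 members. DKC1 had the r values 0.349 and 0.423 in the cytokine-treated and vehicle libraries, NCL 0.328 and 0.357, and NOP10 the low values 0.108 and 0.083. The genes outside the list most like the members, by the mean r of both libraries over 3163 and 2822 cells, were ENO1 (0.517), RAN (0.514), HSP90AB1 (0.462), HSP90AA1 (0.458) and LDHA (0.457). EIF4A1 (0.453), PTMA (0.450), NME1 (0.445), PRDX2 (0.445) and PRDX1 (0.434) followed. In sparse counts r depends on abundance, so the order is a description.

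Other genes of the pathway were lower to a lesser extent. The members and these further genes were chosen with earlier results of these data known, and the part of that choice in the gap was not tested. Of 104 further ribosome biogenesis factors, 100 were measured, with a median log2 ratio of -0.37 over all cells, -0.34 in G1 and -0.36 in S. Of these, 90 were below 0, 27 at least 1.5-fold lower and 1 at least 1.5-fold higher, to be read against the 66.4%, 19.9% and 9.01% of all measured genes. TCOF1, whose protein treacle supports polymerase I, had 8.84 CPM in cytokine-treated and 30.9 CPM in vehicle cells, a log2 ratio of -1.81, and LYAR, a nucleolar protein of growing cells, had -1.43. At the other end NOP53, a large subunit factor, had 272 CPM in cytokine-treated and 158 CPM in vehicle cells, a log2 ratio of 0.78, and the small subunit kinase gene RIOK2 had 0.39.

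The 77 cytosolic ribosomal protein genes, the building blocks that these factors assemble, had a median of -0.15 over all cells, -0.25 in G1 and -0.06 in S. Over all cells 4 of them were at least 1.5-fold lower, against 19.9% of all measured genes. Their median thus lay near that of all genes, and those of the assembly factors below it.

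The remaining lists cover the machinery around the members. The 14 genes of the Ran cycle, which excludes RANBP1, had a median of -0.77, all 14 below 0 and 11 at least 1.5-fold lower, against 66.4% and 19.9% of all measured genes, from CSE1L at -1.49 and RANGAP1 at -1.36 to RANBP2 at -0.32 and NUTF2 at -0.21. The 17 further genes of polymerase I transcription had -0.35, with CD3EAP at -0.99 and TAF1A at -0.81 lowest and TAF1B at 0.11 and ZNRD1 at 0.25 highest. The 19 measured polymerase III genes, which serve 5S rRNA and tRNA, had -0.44 and were all below 0, against the same 66.4%, from GTF3A at -0.90 and GTF3C2 at -0.81 to POLR3D at -0.09 and POLR3F at -0.01. The 14 genes of the RNA exosome, which trims rRNA ends, had -0.28, with EXOSC2 at -1.12 and EXOSC8 at -0.77 lowest and C1D at 0.08 and MPHOSPH6 at 0.56 highest.

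MYC itself had 48.3 CPM in cytokine-treated and 64.0 CPM in vehicle cells, a log2 ratio of -0.40 (-0.47 to -0.34). The 8 measured of 12 genes of the MYC network had a median of -0.18. The MAX partner genes MXD3 and MXD4 lay at its ends, at -2.66 and 1.53, and MLXIP and MLX at -0.65 and 0.06. Of 10 measured p53 targets and regulators the median was -0.22, with MDM2 at -0.71, BAX at -0.27, SESN2 at 0.67 and BBC3 at 1.58.

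**Figure D5:**
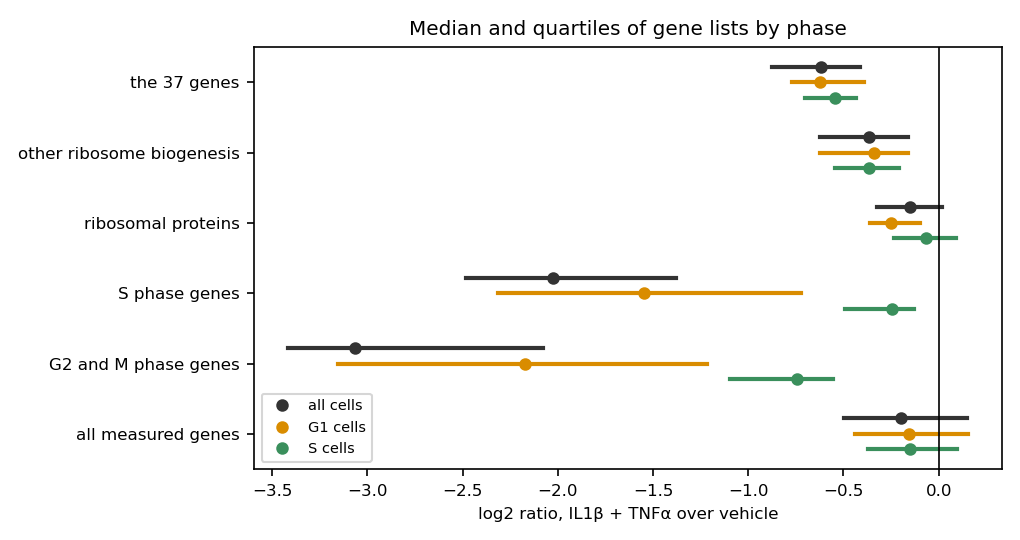
Median (point) and quartiles (line) of the log2 ratio of cytokine-treated over vehicle CPM for gene lists, over all cells (black), G1 cells (orange) and S cells (green). The 37 genes keep medians of -0.62, -0.62 and -0.54, the other biogenesis factors lie nearer 0 at -0.37, -0.34 and -0.36, and the S phase list shifts from -2.03 over all cells to -0.25 in S cells. Phase calls rest on genes of this kind, so the shift of that list follows in part from the calls and is no yardstick for the 37 genes.

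Gene structure and promoter letters were set beside the ratios. On GENCODE v44, 8 of the 37 genes hold 26 small nucleolar RNA genes within them, GNL3 6, NOP56 5 and NOP58 4, and the spliced messages of these hosts and the RNAs cut from their introns come from 1 transcript. The 8 hosts had a median log2 ratio of -0.85 and the other 29 had -0.59, with ranges that overlapped almost fully (-1.10 to -0.14 and -1.04 to 0.16). The 16 members with CACGTG in the promoter window, as in the stretches shown for WDR43 and NOP10, had a median of -0.53 and the 16 without it -0.62. Those with and without the motif thus spanned similar ratios, from -1.02 to -0.12 with it and -1.10 to 0.16 without.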

How the data were processed

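UMI counts per gene and cell were made by the authors on GRCh38 with the tools that the submitters' processing notes name, Cell Ranger 3.1.0 and Seurat 4.0.4, and were deposited as raw counts for 5985 cells that had passed their filters. The deposited cell table gives each cell's library, phase call, cluster and percent of mitochondrial UMIs, which the authors computed per cell (at most 14.98%). The methods integrate both samples for display with the difference of the S and G2M scores regressed out, and the settings of the clusters are not given in the sources used here. Doublets were not called again, and free RNA was not corrected for. The 2 libraries held 69592446 UMIs (IL1β + TNFα) and 58587996 UMIs (vehicle), and the spread between cultures could not be measured.

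UMIs were summed per library, phase or cluster and divided by the total to give CPM, with exact Poisson intervals, and ratios were given with exact conditional binomial intervals. Counted as lower or higher were genes past 1.5-fold or 2-fold whose interval excluded 0 on the log2 scale. For shares of cells, UMIs were drawn at random from each cell down to 15000, leaving out 130 cytokine-treated and 236 vehicle cells. The calculation was tested on simulated data. Alternatives were TMM (edgeR 4.0.16), DESeq2 1.42.0 size factors, totals without ribosomal protein and mitochondrially encoded genes, per-cell means, limits of CPM 1 and 20 or none, a mitochondrial limit of 10%, phases called again with scanpy 1.11.5 and thinning to 7500 UMIs. No count model was fitted.

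The 37 genes and all lists were chosen with earlier results of these data known. Full values were given for members reaching CPM 50 in either library and the 5 lowest and 5 highest ratios, for each pathway list the 2 lowest and 2 highest ratios with MYC, and the 10 outside genes of highest mean r. The phase, ribosomal protein and cell marker lists were given by medians, counts or a few levels only. Promoters came from RefSeq (GRCh38.p14) and gene structure from GENCODE v44.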

Additional observations from a re-analysis of the deposited data

Results flagged for a closer look

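NPM1, the nucleophosmin gene, had ratios on opposite sides of 0 in the 2 main phases and in some clusters. Its log2 ratio of cytokine-treated over vehicle CPM was 0.10 (0.07 to 0.12) in G1 cells and -0.10 (-0.15 to -0.06) in S cells, and it was 0.28 (0.23 to 0.32) in cluster 1 and -0.19 (-0.23 to -0.14) in cluster 0. The other clusters lay between, with 0.19 in cluster 4, 0.09 in cluster 5, 0.03 in cluster 2 and -0.08 in cluster 3. With 1 library per condition these differences were not tested. The S-cell direction rests on scaling by total UMIs, since the ratio was 0.00 with TMM and 0.01 with DESeq2 size factors, while in G1 cells it was 0.26 and 0.27. Scaling was not varied within clusters, and over all cells it shifted every ratio by 0.18 and 0.19, about the size of the value in cluster 0.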

How the results depend on the processing

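The median log2 ratio of the 37 genes stayed below 0 under every alternative run. TMM scaling gave -0.44 over all cells, -0.46 in G1 cells and -0.34 at the vehicle phase mix, and DESeq2 size factors gave -0.42 over all cells and, in an alternative chosen after seeing the data, -0.45 in G1 cells. Both scalings put 13 genes at least 1.5-fold lower (12.6% and 12.1% of all measured genes) and 0 at least 2-fold lower (5.43% and 5.34%), and they turned the direction of NOP10 (0.057 with TMM, 0.073 with DESeq2) and GNL3 (0.032 and 0.048), because they raise every ratio by one constant. A limit of CPM 20 left 20 genes, of which 14 were at least 1.5-fold lower, against 17.3% of all genes at that limit. The other alternatives gave medians from -0.67 to -0.60 over all cells and from -0.72 to -0.56 in G1 cells.

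The difference in the median cell's share, -0.101 percentage points, was -0.104 without NPM1 and NCL and -0.173 over UMIs outside ribosomal protein and mitochondrially encoded genes. Thinning to 7500 UMIs gave a median difference of -3.98 percentage points in the share of cells with a UMI, and CACGTG before the start alone was in 15.6% of member promoters. The vehicle S over G1 median of 0.12 was 0.20 with phases called again and 0.058 with totals without ribosomal protein and mitochondrially encoded genes. Leaving out the cells whose barcode occurred in both libraries, also chosen after seeing the data, moved no count. Phases called again matched the deposited calls in 97.9% of cytokine-treated and 88.9% of vehicle cells. No paired analysis was possible because each condition was 1 library, and none could be left out. Counting depth limits members near 5 CPM, whose intervals are wide within a phase and widest in the 40 cytokine-treated G2 or M cells.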
